A study of Mus musculus with 44 samples.

Results

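The difference between CD26+ and CD26− mammary fibroblasts was measured separately in normal and in tumor-bearing glands, and the genes for which it was not the same in both are described here. CD26 is the cell surface peptidase dipeptidyl peptidase-4, encoded by Dpp4. In many mouse tissues it marks fibroblasts of the adventitia and of the septa between lobules, a compartment rich in progenitor-like cells, whereas fibroblasts next to the parenchyma carry little of it. En1 (engrailed 1) is a homeobox gene whose history of expression marks 1 embryonic fibroblast lineage, and in an En1-Cre;mTmG mouse the cells of that lineage and their progeny carry membrane GFP. Fibroblasts of a tumor are called cancer-associated fibroblasts (CAFs) and those of a control gland normal fibroblasts (NFs).

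Of the 13 mice of the series, 12 gave both CD26 classes and entered the comparison, with 43 of the 44 RNA-seq libraries. The recipients were En1-Cre;mTmG females backcrossed to FVB/n, about weaning age at surgery, whose fat pads were not cleared of their own epithelium. They received mammary tissue from donors of 3 kinds. The control donors lacked Wap-Cre and gave 3 control mice, whose libraries are labelled wildtype. The paper describes Cdh1F/F;PtenF/F mice without Wap-Cre as the source of control donor tissue for these recipients. The WB1P donors (Wap-Cre;Brca1F/F;Trp53F/F), in which Brca1 and Trp53 are deleted in mammary epithelium, gave 4 tumor mice, and the WB1P-Myc donors, which also carry a Cre-activated Myc transgene in Col1a1, gave 5. The tumors were taken at end stage, except that 2 of the WB1P-Myc mice are labelled 8x8. All sorted cells lacked EpCAM, CD49f, CD31 and CD45. The En1+ (CD26−) and double− populations form the CD26− class, and the CD26+ (En1−) and double+ populations form the CD26+ class. Each control mouse is labelled with a pair of numbers, and each pair was counted as 1 mouse. The replicates of a group were different mice.

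Counts were summed per mouse and CD26 class, which gave 24 sums of 5790599 to 29498005 counts. Of these, 19 hold 2 libraries and 5 hold 1, because mice 12, 21, 67 and 95 lacked a population. Levels are given as CPM, the counts scaled to a common library size with TMM factors. In each mouse the CD26 difference is the log2 level of the CD26+ class minus that of the CD26− class. The interaction is the mean difference of both tumor models minus the difference in control mice, and a value above 0 is called a shift toward CD26+. It was tested in 16567 genes with edgeR's quasi-likelihood test with mouse as a factor, and a gene was called at an adjusted p under 0.05. Errors are approximate standard errors (SE), over 9 tumor and 3 control mice. Each is the absolute log2 value divided by the square root of the F statistic of its test.

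Dpp4 itself followed the sort in every mouse. In CD26− NFs it was at 1.74, 6.90 and 5.96 CPM, and in CD26+ NFs at 264, 804 and 510 CPM. In CD26− CAFs it ranged from 1.71 to 15.3 CPM (median 6.90), and in CD26+ CAFs from 234 to 612 CPM (median 409). The CD26 classes did not overlap in either tissue. The Dpp4 difference was 6.82 on the log2 scale in controls and 6.05 in tumors, and its interaction of -0.77 ± 0.40 (SE) did not pass the test (adjusted p = 0.298). The 10 fibroblast markers together made up 23573 to 42179 CPM in the sums of NFs and 31919 to 65197 CPM in those of CAFs.

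The interaction was called for 1007 genes, 6.08% of those tested, with 420 (2.54%) shifted toward CD26+ and 587 (3.54%) toward CD26−. Of these, 374 (2.26%) moved by more than 2 on the log2 scale. Genes fall into classes by whether their CD26 difference was itself called in control mice and in tumor mice. The CD26 difference was called in control mice for 949 genes higher in CD26+ (5.73%) and 969 higher in CD26− cells (5.85%), and in tumor mice for 3980 (24%) and 4215 (25.4%). A gained gene differed between CD26 classes in tumors and was not called in controls. This largest class held 293 genes toward CD26+ (1.77%) and 367 toward CD26− (2.22%). The control difference was under 1 on the log2 scale for 273 and 314 of them. A lost gene differed in controls and was not called in tumors, with 61 genes toward CD26+ (0.368%) and 59 toward CD26− (0.356%). A reversed gene was called in both tissues with opposite signs, with 33 toward CD26+ (0.199%) and 35 toward CD26− (0.211%). With the same sign in both tissues, 21 widened toward CD26+ (0.127%) and 59 toward CD26− (0.356%), and 10 (0.0604%) and 63 (0.38%) narrowed, while 6 were called in neither tissue alone. The differences of the 9 tumor mice and the 3 control mice did not overlap for 519 of the 660 gained, 91 of the 120 lost and all 68 reversed genes, against 8.85% of all genes tested. The classes were called from the same mice, so these shares describe the called genes and are no separate test. Because only 3 control mice entered, a difference not called in controls is not shown to be absent there.

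**Figure D1:**
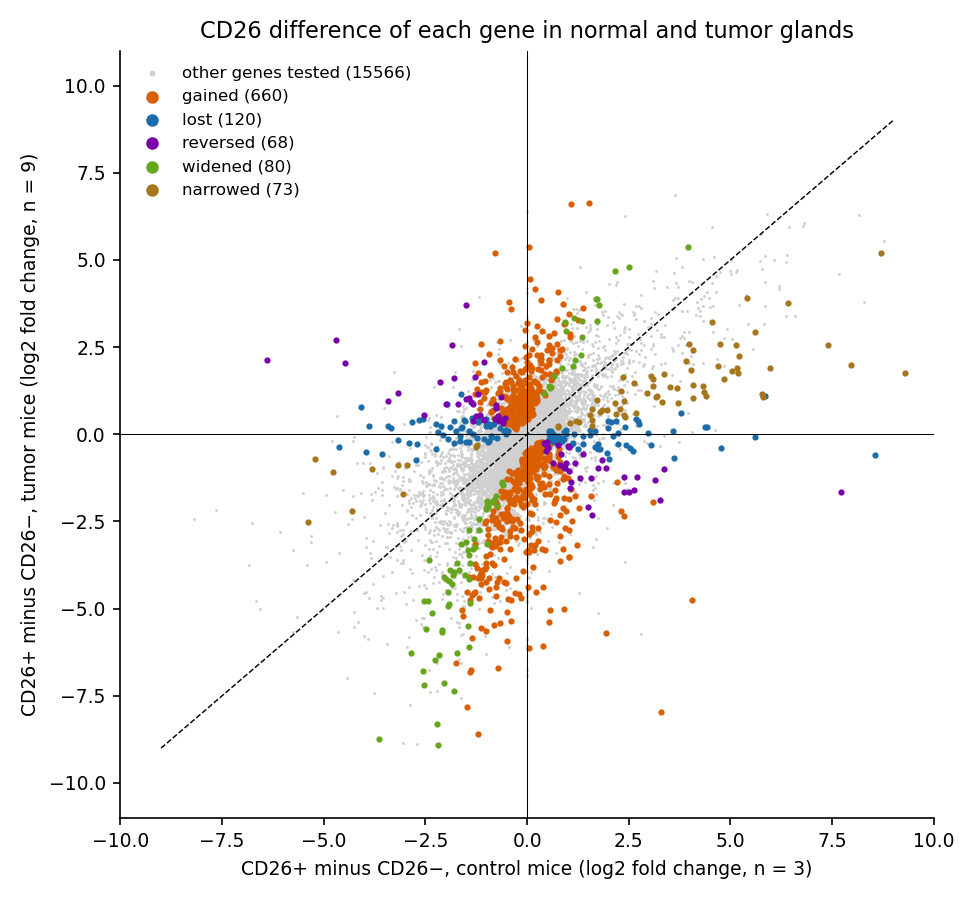
Each point is 1 of the 16567 genes tested, with the fitted CD26+ minus CD26− log2 fold change in control mice (n = 3) on the horizontal axis and in tumor mice (n = 9) on the vertical axis, and the dashed line marks equal differences. The 660 gained genes (orange) stretch along the vertical axis, the 120 lost genes (blue) along the horizontal axis, and the 68 reversed genes (purple) in the upper left and lower right.

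The counts depended on the control mice. Without control mouse 44/46 the interaction was called for 260 genes, without 49/52 for 420 and without 82/83 for 402, and of these 258, 391 and 383 were among the 1007. Leaving out a tumor mouse gave 761 to 1274 calls. Pairing each mouse's own classes also mattered: the fit without the mouse as a block called 334 genes, of which 331 were among the 1007, with 237 gained, 32 lost and 20 reversed. When only the double+ and double− libraries were compared, 807 genes were called, and 690 of them were among the 1007. When only the En1+ and CD26+ libraries were compared, over the 8 mice that have both, 462 genes were called and 376 of them were among the 1007.

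A CD26 difference can change because either class moved between NFs and CAFs. Among the 367 genes gained toward CD26−, 240 rose in CD26− CAFs over CD26− NFs and 9 fell, while 46 rose and 126 fell in CD26+ CAFs over CD26+ NFs. Among the 293 genes gained toward CD26+, 188 fell and 17 rose in CD26− CAFs, and 91 rose and 41 fell in CD26+ CAFs. For comparison, 20% of all genes tested rose and 20.6% fell in CD26− CAFs, and 20.1% rose and 21.2% fell in CD26+ CAFs. By these counts both gained sets moved more often in the CD26− class. These comparisons were made without the mouse factor and use the same sums as the interaction.

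Among the genes gained toward CD26− with the strongest shifts were Stum, Lgi1, Flt1, Trpc6 and Emcn. Flt1 encodes VEGF receptor 1. It was at 6.88, 7.71 and 10.0 CPM in CD26− NFs and at 8.35, 4.34 and 5.34 CPM in CD26+ NFs. In CD26− CAFs it ranged from 31.5 to 354 CPM (median 158), and in CD26+ CAFs from 1.40 to 6.40 CPM (median 1.99). The classes of NFs overlapped, and every sum of CD26− CAFs lay above every other sum. The interaction was -5.45 ± 0.56 (adjusted p = 0.000141). Trpc6, which encodes a cation channel that admits calcium, had 3 to 11 counts in the sums of NFs, and rose to 19.2 to 166 CPM (median 27.8) in CD26− CAFs. The sums of CD26+ CAFs had 0 to 33 Trpc6 counts. Its interaction was -5.41 ± 1.04 (adjusted p = 0.00956), and its call was lost without control mouse 44/46 or 82/83 (highest adjusted p = 0.0717), with no block (adjusted p = 0.102) and in the double+ and double− libraries alone (adjusted p = 0.367).

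Lgi1, a secreted leucine-rich protein known from neurons, was at 0.290 to 1.31 CPM in all sums of NFs. It was at 1.65 to 19.3 CPM (median 12.0) in CD26− CAFs and at 0.110 to 0.498 CPM in CD26+ CAFs (interaction -5.93 ± 0.53, adjusted p = 8.08e-05). Emcn encodes endomucin, a sialomucin of vessels, and was at 1.02 to 2.25 CPM in NFs, at 3.90 to 50.7 CPM (median 8.69) in CD26− CAFs and at 0 to 0.438 CPM in CD26+ CAFs (interaction -4.96 ± 0.54, adjusted p = 0.000227). Stum had 0 or 1 count in every sum of CD26+ CAFs and 60 to 476 counts in those of CD26− CAFs, against 6 to 11 counts in CD26− NFs and 1 to 8 in CD26+ NFs. Its fitted interaction of -7.37 ± 0.86 (adjusted p = 0.000345) depends on how counts near 0 are handled, and its call was lost in the En1+ and CD26+ libraries alone (adjusted p = 0.0779).

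Pericytes are the mural cells of capillaries, and they share contractile genes with smooth muscle cells and with myofibroblasts. Of 10 pericyte markers, 6 (60%) were shifted toward CD26− and 0 toward CD26+, against 3.54% and 2.54% of all genes, with a median interaction of -3.69 against -0.0014 over all genes tested. Rgs5, a regulator of G protein signaling and a defining pericyte marker, was at 15.5, 29.5 and 38.8 CPM in CD26− NFs and at 5.30, 4.38 and 7.73 CPM in CD26+ NFs. It ranged from 577 to 4157 CPM (median 1302) in CD26− CAFs and from 1.59 to 11.3 CPM (median 3.62) in CD26+ CAFs. Its difference was thus already called in controls (-2.21) and widened to -8.30 in tumors (interaction -6.09 ± 0.49, adjusted p = 6.89e-05). Notch3, the Notch receptor of mural cells, rose in CD26− cells, with 98.3 to 122 CPM in NFs and 274 to 1326 CPM in CAFs, and fell in CD26+ cells, with 44.1 to 72.5 CPM in NFs and 7.50 to 35.1 CPM in CAFs (interaction -4.13 ± 0.47, adjusted p = 0.000298). Cspg4, which encodes the proteoglycan NG2, was at 11.3 to 25 CPM in all sums of NFs, at 73.9 to 592 CPM in CD26− CAFs and at 15.1 to 101 CPM in CD26+ CAFs (interaction -3.26 ± 0.54, adjusted p = 0.00357). Mcam (-4.57 ± 0.56), Gja4 (-4.15 ± 0.62) and Abcc9 (-1.86 ± 0.51) were also called. The call for Gja4 was lost without control mouse 44/46 (adjusted p = 0.0534), and that for Abcc9 without any of 9 of the 12 mice (12, 14, 35, 21, 23, 95 and the 3 controls, adjusted p up to 0.228). The other 4 markers, Higd1b (-6.18 ± 3.28), Cox4i2 (-3.04 ± 1.32), Kcnj8 (-1.11 ± 0.45) and Ndufa4l2 (1.68 ± 0.73), did not pass the test, and Higd1b had 0 to 5 counts in every sum of NFs.

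The summed level of the 10 pericyte markers was 219 to 390 CPM in CD26− NFs, 172 to 191 CPM in the CD26+ NFs, 1927 to 9511 CPM in CD26− CAFs and 209 to 454 CPM in CD26+ CAFs. No pericyte marker was at 0 in all sums of any of these groups. Of the 10, however, 1 was under 1 CPM in every sum of CD26− NFs, 3 in CD26+ NFs, 0 in CD26− CAFs and 2 in CD26+ CAFs. The marker sum was raised in both CD26− populations of the tumors, at 1337 to 4761 CPM in the 7 En1+ libraries and 2411 to 10961 CPM in the 9 double− libraries, against 221 to 434 CPM in the 6 CD26− libraries of controls. The sort removed epithelial, endothelial and immune cells and had no gate against pericytes. The part of such cells in the genes gained toward CD26− was not tested, and in these bulk libraries more cells of a type and more RNA per cell cannot be told apart.

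None of the 13 epithelial, 13 immune and 6 Schwann cell markers tested was called, and of the 10 endothelial markers Emcn and Esam were, both toward CD26− (20%, against 6.08% of all genes). Esam, an adhesion molecule of tight junctions, had 4.06 to 5.99 CPM in NFs and 17.3 to 159 CPM in CAFs of the CD26− class, and 3.59 to 4.06 CPM in NFs and 0.967 to 2.54 CPM in CAFs of the CD26+ class (interaction -4.36 ± 0.37, adjusted p = 8.08e-05). The defining endothelial gene Cdh5 was at 4.71 to 12.0 CPM in CD26− NFs and at 0.640 to 6.81 CPM in CD26− CAFs. Summed, the endothelial markers had 62.5 to 96.1 CPM in NFs and 57.9 to 247 CPM in CAFs of the CD26− class, and 204 to 531 CPM and 77.1 to 198 CPM in the CD26+ class. Most of the sum in the CD26+ class was 1 gene, Tek, at 152.9 to 446.5 CPM in NFs and 52.0 to 158 CPM in CAFs. Cdh5 was at 4.91 to 7.57 CPM in CD26+ NFs and at 0 to 1.87 CPM in CD26+ CAFs. Epithelial markers summed to 26.8 to 94.5 CPM in NFs, 22.9 to 219 CPM in CD26− CAFs and 1.59 to 240 CPM in CD26+ CAFs. Immune markers summed to 23.5 to 35.4 CPM in NFs, 26.0 to 144 CPM in CD26− CAFs and 26.7 to 259 CPM in CD26+ CAFs. The upper end in CD26+ CAFs came largely from 1 gene, Cd3e, at 10.2 to 221.5 CPM there and 3.51 to 16.4 CPM in CD26− CAFs. Ptprc, which encodes CD45, was at 0.212 to 3.455 CPM in CD26+ CAFs and 0.462 to 9.58 CPM in CD26− CAFs. Of 10 skeletal muscle markers 2 were called (20%), with Des widened toward CD26− (-3.43 ± 0.58) and Mylpf narrowed toward CD26+ (3.69 ± 0.67). Des encodes desmin, an intermediate filament that pericytes and smooth muscle cells also carry, and it was at 46.4 to 205 CPM in CD26− CAFs and 0.318 to 2.19 CPM in CD26+ CAFs, against 0.869 to 17.6 CPM in NFs. Skeletal muscle markers summed to 74.5 to 368 CPM in NFs and 61.9 to 219 CPM in CAFs of the CD26− class, and to 19.9 to 75.9 CPM and 5.96 to 15.6 CPM in the CD26+ class. The sum in CD26− CAFs was largely Des, and all other markers had a lower median there than in CD26− NFs. The median went from 15.1 to 1.81 CPM for Acta1 and from 38.2 to 1.09 CPM for Myh4. Of 8 adipocyte markers 1 was called (12.5%), Slc2a4 toward CD26− (-3.34 ± 0.80), and they summed to 15.9 to 56.0 CPM in NFs and 10.1 to 63 CPM in CAFs. The part of these cell types in the shifts was not tested.

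Smooth muscle contractile genes shifted in the same direction as the pericyte markers. Of 19 tested, 9 (47.4%) were called toward CD26− and 0 toward CD26+, and the interaction was below 0 for all 19 (median -1.59). Myl9, the regulatory light chain of smooth muscle myosin, was at 44.6, 60.2 and 43.6 CPM in CD26− NFs and at 54.6, 52.3 and 59.4 CPM in CD26+ NFs, so the classes overlapped. It was at 130 to 262 CPM (median 178) in CD26− CAFs and at 28.2 to 65.0 CPM (median 54.4) in CD26+ CAFs, which did not overlap. The interaction was -2.04 ± 0.31 (adjusted p = 0.00212). Myh11, the heavy chain, was at 11.3 to 28.1 CPM in the CD26− NFs and 4.08 to 7.37 CPM in CD26+ NFs, and at 34.3 to 249 CPM in CD26− CAFs and 0 to 1.17 CPM in CD26+ CAFs (interaction -5.58 ± 0.51, adjusted p = 8.08e-05). Tpm1, a tropomyosin, shifted by -1.22 ± 0.20 (adjusted p = 0.00354). Mylk (-2.24 ± 0.49) and Synpo2 (-2.17 ± 0.46) lost their calls without control mouse 44/46 or 82/83, as did Actg2 (-3.57 ± 0.86), with adjusted p up to 0.284. Lmod1 (-3.53 ± 0.63) lost its call without 44/46 (adjusted p = 0.0813). Cald1 (-0.93 ± 0.25, adjusted p = 0.0480) lost its call without any of 10 of the 12 mice (all but 93 and 69, adjusted p up to 0.170). Ppp1r14a (-5.08 ± 0.85) had at most 2 counts in the sums of CD26+ CAFs. Acta2, the smooth muscle actin by which myofibroblasts are often recognized, was not among them. It was at 33.7 to 105 CPM in CD26− NFs, 4.19 to 73.5 CPM in the CD26+ NFs, 451 to 1504 CPM in CD26− CAFs and 113 to 255 CPM in CD26+ CAFs. It rose in both classes, by 3.72 in CD26− cells and 2.26 in CD26+ cells on the log2 scale (adjusted p = 8.8e-05 and 0.00353), and its interaction was -0.93 ± 0.44 (adjusted p = 0.242). Tagln, another actin-binding marker of these cells, rose by 3.16 in CD26− cells (adjusted p = 0.00086), with an interaction of -1.21 ± 0.40 (adjusted p = 0.0961).

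**Figure D2:**
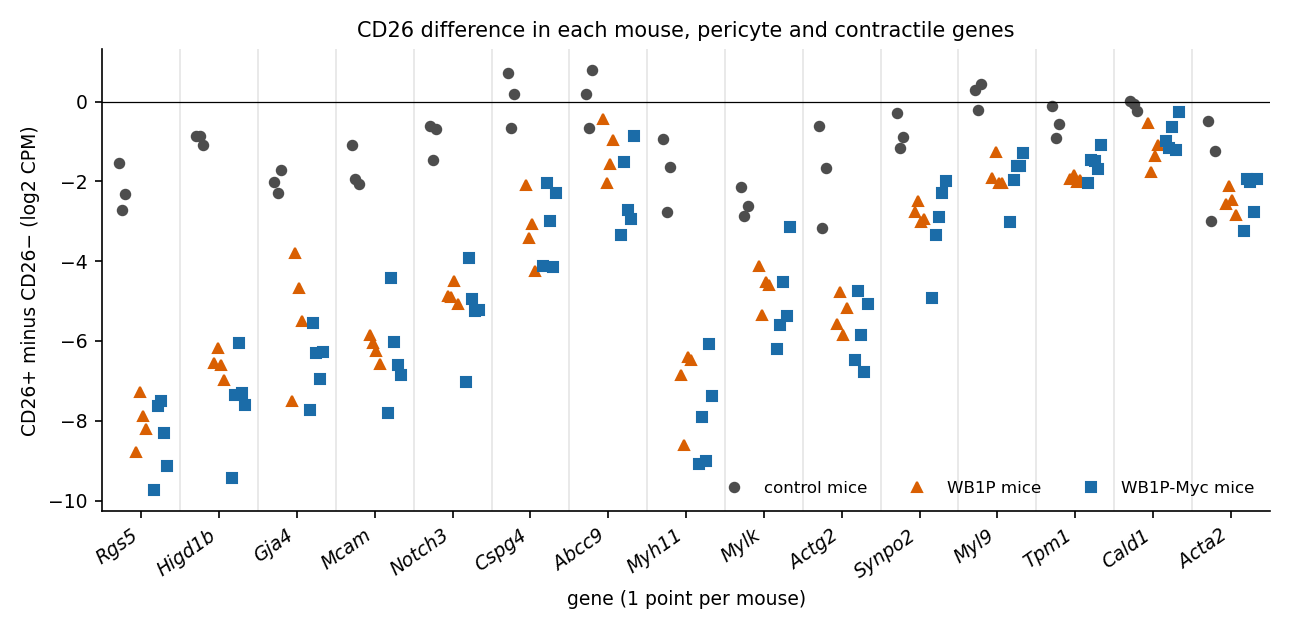
CD26+ minus CD26− log2 CPM of 7 pericyte and 8 contractile genes, 1 point per mouse, with control mice as gray circles, WB1P mice as orange triangles and WB1P-Myc mice as blue squares. For Rgs5 the 9 tumor mice lie between -9.74 and -7.28 and the 3 control mice between -2.73 and -1.53, whereas for Acta2 the tumor mice (-3.23 to -1.94) overlap the controls (-2.98 to -0.48).

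The CArG box, the site of serum response factor (SRF), is a known element of contractile genes, and promoters of called genes that hold it are printed for that reason. In the 250 bases before the start, a CArG box was found on either strand for 12 of the 274 genes gained toward CD26− that have a RefSeq promoter (4.38%), and for 1 of 202 genes gained toward CD26+ (0.495%), against 1.39% of 11829 promoters of tested genes and 1.62% of all 27025. Of the contractile list, Myl9 was the only gained gene among the 12, and the promoters of Tpm1, Synpo2 and Cald1, which were also gained, held no box in this window. Of 27 promoters of genes reversed toward CD26−, 2 held it (Dmd and Tbc1d9). The RBPJ word TGGGAA, through which Notch acts, stood in 28.1% of promoters gained toward CD26−, 25.7% of those gained toward CD26+ and 24.2% of all tested. An NF-kB site, which can overlap the RBPJ word, stood in 10.2%, 5.94% and 5.82%. A match describes the letters of the window and does not show a bound site. The windows below, each of 100 bases on the plus strand of GRCm38.p6 from RefSeq, show the box in capitals for Myl9 (chr2:156775258-156775357), Trpc6 (chr9:8543975-8544074) and Filip1l (chr16:57549135-57549234), which were gained, and for Dmd (chrX:82948727-82948826), which was reversed.
Myl9: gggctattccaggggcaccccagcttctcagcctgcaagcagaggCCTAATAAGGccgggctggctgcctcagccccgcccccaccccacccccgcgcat
Trpc6: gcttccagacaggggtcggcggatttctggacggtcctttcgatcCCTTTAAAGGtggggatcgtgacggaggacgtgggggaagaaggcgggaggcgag
Filip1l: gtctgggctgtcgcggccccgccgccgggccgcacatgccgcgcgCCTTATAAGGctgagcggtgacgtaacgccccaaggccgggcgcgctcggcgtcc
Dmd: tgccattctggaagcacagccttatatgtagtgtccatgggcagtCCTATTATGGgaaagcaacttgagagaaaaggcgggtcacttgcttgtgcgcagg
The box begins 161, 122, 62 and 98 bases before the annotated start, in that order.

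Of 23 integrins tested, 6 were called toward CD26− and 1 toward CD26+ (30.4% in all, against 6.08% of all genes), with a median interaction of -0.93. Of the 6, Itga1, Itga6 and Itga7 were gained, Itga2 and Itgb7 narrowed and Itga11 lost. The call for Itga7 was lost without control mouse 44/46 or 82/83 (adjusted p = 0.0658 and 0.0557). That for Itga11 was lost without 44/46 (adjusted p = 0.0717). Itga1, the alpha chain of a collagen receptor, was at 20.1, 21.3 and 30.3 CPM in CD26− NFs and at 17.4, 10.5 and 15.0 CPM in CD26+ NFs. It ranged from 172 to 748 CPM (median 398) in CD26− CAFs and stayed at 13.2 to 28.0 CPM in CD26+ CAFs, so that all CD26− CAFs lay above all other sums. The interaction was -3.48 ± 0.40 (adjusted p = 0.000344). Of 25 Notch pathway genes, 4 were called toward CD26− and 1 toward CD26+ (20% in all, against 6.08%). Besides Notch3, those toward CD26− were Notch1 (-1.48 ± 0.36) and the targets Nrarp (-4.49 ± 0.97) and Hey2 (-3.52 ± 0.77), and the calls of all 3 were lost without control mouse 44/46 or 82/83, that of Nrarp also without 49/52 (adjusted p from 0.0694 to 0.156). Serpine2, a serpin that inhibits thrombin and urokinase, had 21.8 to 35.0 CPM in NFs and 624 to 2531 CPM in CAFs of the CD26− class, and 35.5 to 54.9 CPM in NFs and 193 to 439 CPM in CAFs of the CD26+ class (interaction -3.24 ± 0.35, adjusted p = 0.000227). It rose in both classes, and more in the CD26− class. Inhba, the subunit of activin A, had an interaction of -2.77 ± 0.62 (adjusted p = 0.0205) and was at 132 to 1541 CPM in CD26− CAFs and 25.2 to 391 CPM in CD26+ CAFs. Its call was lost without control mouse 44/46 or 82/83 (adjusted p up to 0.137). Wnt5a, a noncanonical Wnt ligand, was at 59.3 to 67.0 CPM in CD26− NFs, 35.3 to 62.8 CPM in the CD26+ NFs, 74.7 to 368 CPM in CD26− CAFs and 14.5 to 40.7 CPM in CD26+ CAFs (interaction -2.38 ± 0.28, adjusted p = 0.000382).

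Gucy1a1, Gucy1b1, Col4a1 and Col4a2 were among the 126 genes gained toward CD26− that fell in CD26+ CAFs. Gucy1a1 and Gucy1b1 encode the subunits of soluble guanylate cyclase, the nitric oxide receptor. Gucy1b1 was at 37.0, 63.9 and 45.6 CPM in CD26− NFs and at 31.8 to 199 CPM in CD26− CAFs (adjusted p = 0.476 for CAFs against NFs), and in the CD26+ class it fell, with 23.6, 21.3 and 25.7 CPM in NFs and 1.09 to 6.03 CPM in CAFs. Its interaction was -3.23 ± 0.46 (adjusted p = 0.00159), and that of Gucy1a1 was -3.25 ± 0.55 (adjusted p = 0.00420). Col4a1 and Col4a2, the collagen IV chains of basement membranes, followed the same course. Col4a1 was at 5521 to 7139 CPM in CD26− NFs, 3191 to 7177 CPM in the CD26+ NFs and 4523 to 11234 CPM in CD26− CAFs, and at 963 to 2680 CPM in CD26+ CAFs. The interactions were -1.56 ± 0.36 for Col4a1 and -1.41 ± 0.34 for Col4a2, and both calls were lost without control mouse 44/46 or 82/83 (adjusted p from 0.118 to 0.145).

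Genes gained toward CD26+ were led by Nrk, Wnt16, Aldh1a1, Kcnn3, Aass and Pamr1. Pamr1, a secreted protein with a peptidase-like domain, was at 123, 204 and 273 CPM in CD26− NFs and at 158, 255 and 280 CPM in CD26+ NFs. It fell to 24.3 to 57.2 CPM (median 37.4) in CD26− CAFs and remained at 214 to 563 CPM (median 343) in CD26+ CAFs. The classes overlapped in NFs and were separate in CAFs, and the interaction was 2.86 ± 0.30 (adjusted p = 0.000156). Aldh1a1, an enzyme that makes retinoic acid, was higher in CD26− than in CD26+ NFs, at 69.3, 62.3 and 78.5 against 26.9, 24.4 and 49.8 CPM, though this difference of -1.12 was not called. It fell to 0.933 to 6.93 CPM in CD26− CAFs and was at 9.27 to 73.1 CPM (median 17.7) in CD26+ CAFs (interaction 3.72 ± 0.53, adjusted p = 0.00159). Kcnn3, a calcium-activated potassium channel, fell in both classes. It went from 219, 59.9 and 260 CPM to 0.0990 to 1.66 CPM in CD26− cells and from 104, 78.2 and 107 CPM to 1.27 to 7.56 CPM in CD26+ cells, and the deeper fall in the CD26− class gave an interaction of 3.34 ± 0.42 (adjusted p = 0.000598).

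Aass and Wnt16 rose in the CD26+ class. Aass, a mitochondrial enzyme of lysine breakdown, was at 0.729 to 2.19 CPM in all sums of NFs and at 0.583 to 2.38 CPM in CD26− CAFs, and rose to 10.7 to 38.2 CPM (median 16.5) in CD26+ CAFs (interaction 3.33 ± 0.44, adjusted p = 0.000922). Wnt16, a Wnt ligand, was at 1.01, 5.92 and 21.7 CPM in CD26− NFs, 2.22, 5.10 and 7.18 CPM in the CD26+ NFs, 0.280 to 2.77 CPM in CD26− CAFs and 3.33 to 31.2 CPM in CD26+ CAFs (interaction 3.99 ± 0.58, adjusted p = 0.00177). On the log2 scale it rose by 2.02 in the CD26+ class (adjusted p = 0.0358), where NFs and CAFs overlapped, and fell by 2.56 in the CD26− class (adjusted p = 0.00265). Nrk, a kinase gene of chromosome X, was at 2.38 to 3.70 CPM in all sums of NFs, at 0.0740 to 1.48 CPM in CD26− CAFs and at 1.63 to 62.6 CPM in CD26+ CAFs. Its interaction of 3.99 ± 0.90 (adjusted p = 0.0213) lost its call without any 1 of the control mice (adjusted p from 0.0790 to 0.0971) and with no block (adjusted p = 0.0568).

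Of 31 elastic fibre genes, 7 were called toward CD26+ and 1 toward CD26− (25.8% in all, against 6.08% of all genes, median interaction 0.52). Lox, which crosslinks collagen and elastin, was at 578, 554 and 666 CPM in CD26− NFs and 478, 243 and 483 CPM in CD26+ NFs. It reached 870 to 2420 CPM (median 1893) in CD26− CAFs and 2907 to 5121 CPM (median 3918) in CD26+ CAFs. It rose in both classes, and the order of the classes turned (interaction 1.78 ± 0.30, adjusted p = 0.00454), although the control difference of -0.64 was not called. Of 32 chemokine genes, 4 were called toward CD26+ (12.5%, against 2.54% of all genes) and 0 toward CD26−. They were the ligands Ccl11 (1.31 ± 0.27) and Cxcl5 (1.76 ± 0.46) and the scavenging receptors Ackr1 (2.16 ± 0.35) and Ackr2 (2.27 ± 0.46). Ackr1 was at 6.92 to 14.0 CPM in CD26− NFs, 22.4 to 46.3 CPM in the CD26+ NFs, 1.13 to 6.58 CPM in CD26− CAFs and 21.0 to 63.6 CPM in CD26+ CAFs, so that its difference widened by a fall in the CD26− class. The calls for Ccl11 and Cxcl5 were lost without any control mouse, that for Cxcl5 also without tumor mouse 14, 35, 21 or 95, and that for Ackr2 without 44/46 or 82/83 (adjusted p up to 0.185). Of 32 complement genes 3 were called (9.38%, against 6.08% of all genes), among them Cfb (1.90 ± 0.49), which was at 10.2 to 20.7 CPM in CD26+ CAFs and 0.629 to 2.74 CPM in NFs. That call was lost without any of 8 mice (12, 14, 35, 21, 95 and the 3 controls, adjusted p up to 0.287).

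Of 55 Wnt pathway genes tested, 2 were called toward CD26+ (Wnt2 and Wnt16) and 4 toward CD26− (10.9% in all, against 6.08% of all genes), among them Wnt5a and Wnt10b. The call for Wnt10b was lost without control mouse 44/46 or 49/52 (adjusted p = 0.0712 and 0.0621). Wnt2, a canonical ligand, was at 62.1, 22.1 and 55.6 CPM in CD26− NFs and 81.1, 69.8 and 65.1 CPM in CD26+ NFs. It fell to 3.65 to 18.9 CPM in CD26− CAFs and was at 52.7 to 118 CPM in CD26+ CAFs (interaction 2.57 ± 0.40, adjusted p = 0.00259). Ptgis, the prostacyclin synthase, widened in the same way, with 7.03 to 43.4 CPM in CD26− CAFs against 104 to 244 CPM in CD26+ CAFs (interaction 2.27 ± 0.33, adjusted p = 0.00160). The fibroblast markers Dcn (decorin, 1.55 ± 0.36) and Pdgfra (1.26 ± 0.35) were also shifted toward CD26+. Dcn went from 3871 to 5971 CPM to 706 to 2487 CPM in CD26− cells and from 3557 to 4060 CPM to 2871 to 3503 CPM in CD26+ cells. The call for Dcn was lost without any control mouse (adjusted p up to 0.120), and that for Pdgfra (adjusted p = 0.0494) without any of 10 of the 12 mice (all but 67 and 69, adjusted p up to 0.181).

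**Figure D3:**
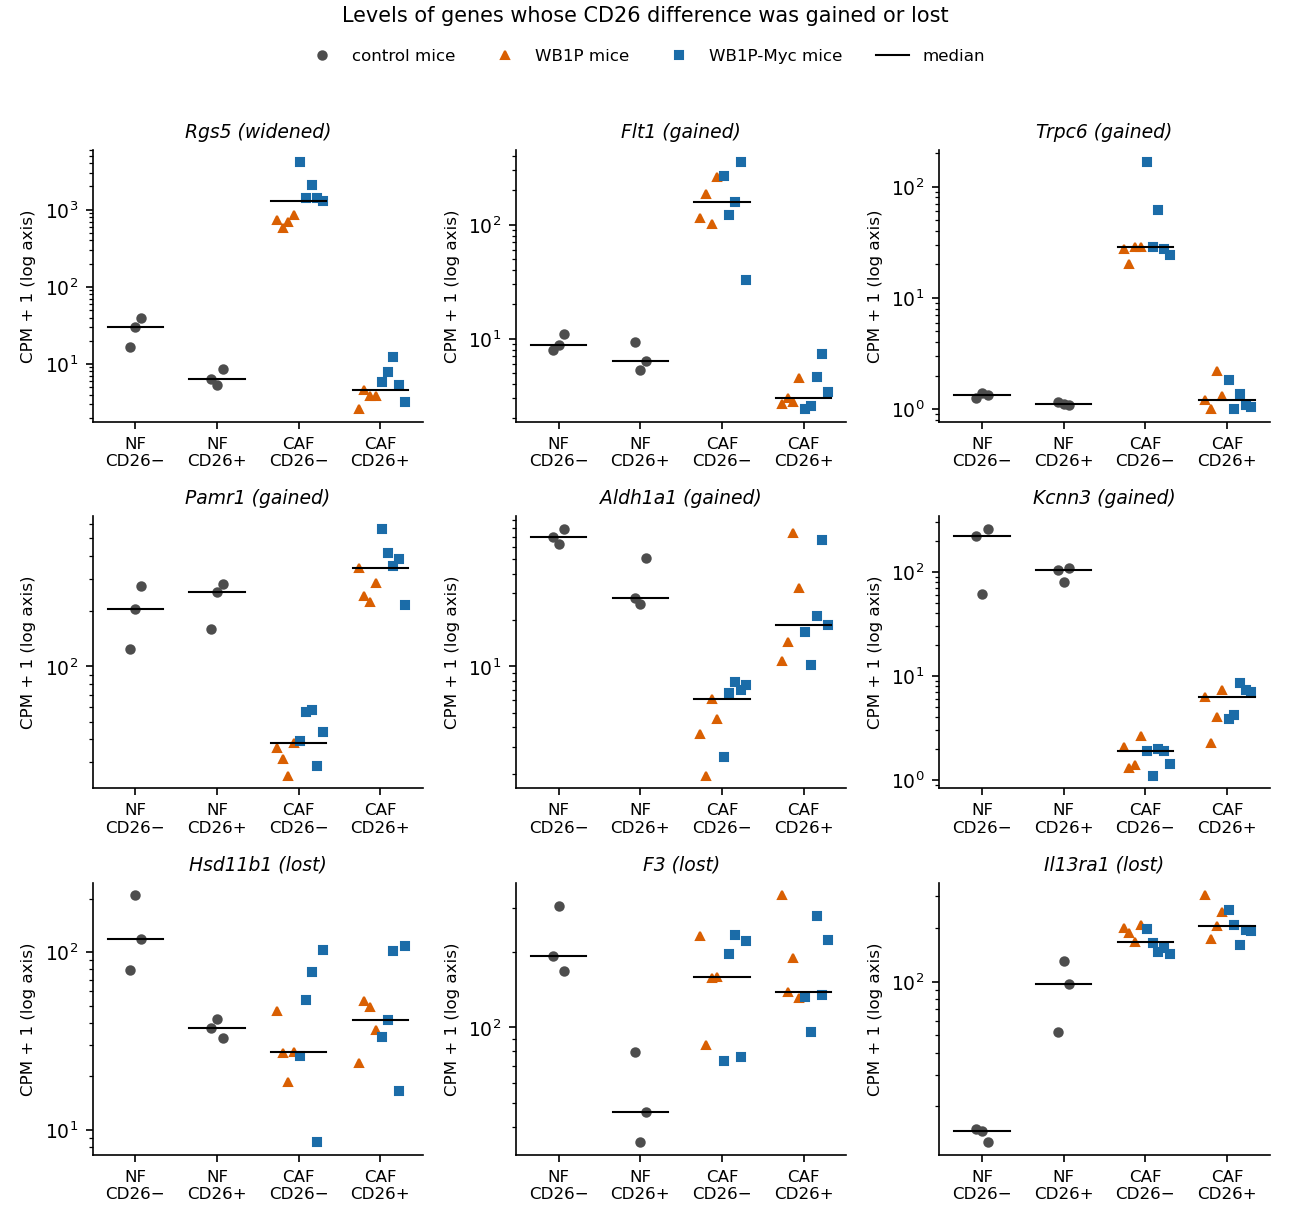
CPM + 1 on a log axis in the CD26− and CD26+ sums of NFs (3 control mice) and CAFs (4 WB1P and 5 WB1P-Myc mice) for 9 genes, 1 point per sum, with the median as a line. Flt1, Trpc6 and Rgs5 rise in CD26− CAFs, Pamr1, Aldh1a1 and Kcnn3 are lowest in CD26− CAFs, and Hsd11b1, F3 and Il13ra1 differ between the classes of NFs while the classes of CAFs overlap.

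Lost differences ran both ways, and the class is set by the mean of both tumor models. Genes higher in CD26− NFs whose difference was lost were led by Slitrk1, Col24a1, F5, F3, Adgrb2 and Hsd11b1. F3 is tissue factor, which starts coagulation, and F5 is coagulation factor V. F3 was at 192, 304 and 167 CPM in CD26− NFs and 78.8, 33.6 and 44.6 CPM in CD26+ NFs, and at 72.0 to 232 CPM (median 158) in CD26− CAFs and 94.5 to 336 CPM (median 138) in CD26+ CAFs. The classes of NFs were separate and those of CAFs overlapped, with a rise in the CD26+ class (1.82 on the log2 scale, adjusted p = 0.0036) and no called change in the CD26− class (adjusted p = 0.342). The interaction was 2.36 ± 0.43 (adjusted p = 0.00732). F5 had an interaction of 2.42 ± 0.39 (adjusted p = 0.00331), with a difference of -2.70 in controls and -0.28 in tumors. Col24a1, a fibrillar collagen chain, went from 4.71 to 8.40 CPM to 6.93 to 64.0 CPM in CD26− cells and from 0.264 to 1.11 CPM to 4.46 to 55.0 CPM in CD26+ cells (interaction 3.00 ± 0.66, adjusted p = 0.0184). Its difference was still called in WB1P mice (-1.06, adjusted p = 0.0490). Hsd11b1, which regenerates active glucocorticoid, lost its difference by a fall in the CD26− class. It went from 78.6, 208 and 118 CPM to 7.47 to 101 CPM (median 26.3) in CD26− cells, and was at 36.5, 40.8 and 31.6 CPM in CD26+ NFs and 15.5 to 107 CPM (median 40.2) in CD26+ CAFs (interaction 2.17 ± 0.44, adjusted p = 0.0118). Adgrb2 (2.25 ± 0.38, adjusted p = 0.00432) and Slitrk1 (3.44 ± 0.73, adjusted p = 0.0152), a membrane protein of neurons, followed the same course, and Slitrk1 had 0 to 69 counts in CD26+ NFs. The calls for Hsd11b1 and Col24a1 were lost without control mouse 44/46 or 49/52 (adjusted p from 0.0716 to 0.0940), and that for Slitrk1 without 44/46 (adjusted p = 0.0888). With no block, all of these calls but that of F3 were lost, with an adjusted p of 0.192 for Hsd11b1, 0.121 for Adgrb2, 0.171 for F5, 0.0785 for Col24a1 and 0.270 for Slitrk1.

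Genes higher in CD26+ NFs whose difference was lost were led by Adamts16, Ankrd1, Adcy2, Adamts6, Il13ra1 and Chst1. Adamts16, a secreted metalloprotease, had 6, 3 and 2 counts in the sums of CD26− NFs and was at 17.8, 77.9 and 66.8 CPM in CD26+ NFs. It was at 15.8 to 166 CPM (median 98.9) in CD26− CAFs and at 17.3 to 81.2 CPM (median 47.6) in CD26+ CAFs. CD26− CAFs thus reached the range of the CD26+ class, and the fitted interaction was -9.15 ± 0.87 (adjusted p = 9.69e-05), a size that depends on the few counts in CD26− NFs. The models were not alike here, with a called difference of -1.57 in WB1P mice (adjusted p = 0.0125) and one of 0.39 in WB1P-Myc mice (adjusted p = 0.488). Adamts6, of the same protease family, rose in both classes, from 0.326 to 1.57 CPM to 24.5 to 114 CPM in CD26− cells and from 1.23 to 5.59 CPM to 35.0 to 55.9 CPM in CD26+ cells (interaction -2.50 ± 0.36, adjusted p = 0.00177). Its difference was likewise called toward CD26− in WB1P mice (-0.85, adjusted p = 0.00615) and was 0.31 in WB1P-Myc mice (adjusted p = 0.218), so for both proteases the order of the classes in WB1P mice was turned. Il13ra1, a chain of the interleukin-13 receptor, was at 13.9, 13.4 and 11.5 CPM in CD26− NFs and 51.3, 130 and 95.8 CPM in CD26+ NFs, and at 141 to 205 CPM (median 166) in CD26− CAFs and 159 to 304 CPM (median 204) in CD26+ CAFs (interaction -2.45 ± 0.25, adjusted p = 0.000141). Adcy2, an adenylate cyclase, went from 0.616, 1.97 and 0.795 CPM to 4.02 to 24.5 CPM in CD26− cells and was at 9.30, 42.1 and 23.1 CPM in CD26+ NFs and 7.07 to 19.4 CPM in CD26+ CAFs (interaction -4.22 ± 0.44, adjusted p = 0.000156). Ankrd1, a stretch-responsive target of YAP, went from 0.166 to 0.840 CPM to 9.17 to 32.0 CPM in CD26− cells and from 5.21 to 7.05 CPM to 5.94 to 31.4 CPM in CD26+ cells (interaction -4.30 ± 0.67, adjusted p = 0.00264). Chst1, a sulfotransferase, shifted by -2.18 ± 0.58 (adjusted p = 0.0442), and its call was lost without any of 10 of the 12 mice (all but 69 and 82/83, adjusted p up to 0.0809). Without control mouse 49/52 its interaction was -1.21.

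Narrowed differences lay largely on the same side, with 63 genes toward CD26− and 10 toward CD26+. Pdgfc, a ligand of the PDGF alpha receptor, was at 0.725, 1.94 and 1.43 CPM in CD26− NFs and 15.2, 45.6 and 23.5 CPM in CD26+ NFs, and at 16.9 to 40.7 CPM in CD26− CAFs and 41.8 to 119 CPM in CD26+ CAFs. Its difference narrowed from 4.33 to 1.39 (interaction -2.94 ± 0.38, adjusted p = 0.000710). Limch1, an actin-associated protein, narrowed by a fall in the CD26+ class, from 30.8, 112 and 61.8 CPM to 12.5 to 36.8 CPM, while CD26− cells held 0.326 to 1.28 CPM in NFs and 0.629 to 4.83 CPM in CAFs (interaction -2.67 ± 0.41, adjusted p = 0.00253).

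Reversed genes changed their order between the tissues. Megf6, Aqp1, Mfap4 and Gfra2, among others, were higher in CD26− NFs and higher in CD26+ CAFs. Aqp1, the aquaporin-1 water channel, was at 534, 177 and 309 CPM in CD26− NFs and 55.5, 21.3 and 33.0 CPM in CD26+ NFs. It fell to 10.3 to 65.1 CPM (median 14.6) in CD26− CAFs and was at 33.2 to 106 CPM (median 53.9) in CD26+ CAFs. Its differences ran from -3.27 to -3.05 in control mice and from -0.14 to 2.96 in tumor mice, and the interaction was 4.37 ± 0.50 (adjusted p = 0.000298). Mfap4, a protein of elastic microfibrils, was at 524, 340 and 488 CPM in CD26− NFs and 152, 31.1 and 94.6 CPM in CD26+ NFs, and at 190 to 733 CPM (median 428) and 389 to 892 CPM (median 597) in the CD26− and CD26+ CAFs. The CAFs of the CD26− class differed from NFs by 0.04 on the log2 scale (adjusted p = 0.939), and the CD26+ class rose by 2.83 (adjusted p = 6.1e-05). All 9 tumor mice had more Mfap4 in the CD26+ class and all 3 control mice less (interaction 3.08 ± 0.30, adjusted p = 0.000115).

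Megf6, a protein with many EGF-like repeats, varied widely between control mice. It was at 226, 7.67 and 77.9 CPM in their CD26− class and 26.4, 0.302 and 8.05 CPM in their CD26+ class, yet the differences within a mouse stayed between -4.31 and -3.09. In tumors they lay between 0.30 and 1.75 (interaction 4.35 ± 0.31, adjusted p = 4.28e-05), and with no block this call was lost (adjusted p = 0.170). Gfra2, a receptor for the neurturin family of ligands, turned from -1.29 to 1.63 (interaction 2.92 ± 0.43, adjusted p = 0.00199). Ret, the signaling partner of Gfra2, was gained toward CD26+ (2.05 ± 0.43, adjusted p = 0.0154), at 4.90 to 8.08 CPM in CD26− NFs, 5.31 to 15.3 CPM in the CD26+ NFs, 5.21 to 19.8 CPM in CD26− CAFs and 20.3 to 109 CPM in CD26+ CAFs, a call lost without control mouse 44/46 or 49/52 (adjusted p up to 0.0904). Igf1, the insulin-like growth factor that fibroblasts secrete, turned from -0.76 to 0.75 (interaction 1.51 ± 0.23, adjusted p = 0.00205). With no block the calls for Gfra2 (adjusted p = 0.0501), Ret (adjusted p = 0.162) and Igf1 (adjusted p = 0.201) were lost.

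Spock3, Pgf, Ecscr, Kif21b, Prkg2 and Tgfb2 were higher in CD26+ NFs and higher in CD26− CAFs. Pgf encodes placental growth factor, a ligand of the receptor encoded by Flt1. It was at 0.761, 1.61 and 0.762 CPM in CD26− NFs and 6.33, 13.1 and 8.21 CPM in CD26+ NFs, and at 21.8 to 145 CPM (median 60.2) in CD26− CAFs and 5.52 to 52.1 CPM (median 29.0) in CD26+ CAFs. It rose by 5.82 in the CD26− class and by 1.52 in the CD26+ class (adjusted p = 1.92e-06 and 0.0230), and its interaction was -4.47 ± 0.46 (adjusted p = 0.000141). Tgfb2, a TGF-beta ligand, was at 22.7, 14.4 and 18.1 CPM in CD26− NFs and 58.1, 93.9 and 63.2 CPM in CD26+ NFs. It rose to 49.9 to 524 CPM (median 134) in CD26− CAFs, with 23.3 to 247 CPM (median 61.7) in CD26+ CAFs, and its difference lay between 1.35 and 2.69 in control mice and between -1.44 and 0.03 in tumor mice (interaction -2.91 ± 0.32, adjusted p = 0.000224). Tgfb1 was not called (-0.72 ± 0.35, adjusted p = 0.256). Of 54 TGF-beta and BMP pathway genes tested, 6 were called toward CD26+ and 4 toward CD26− (18.5% in all, against 6.08% of all genes).

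Ecscr, a regulator of endothelial migration, was at 0.986 to 1.52 CPM in the CD26− NFs and 5.18 to 24.2 CPM in CD26+ NFs, and at 26.3 to 63.6 CPM in CD26− CAFs and 16.2 to 41.5 CPM in CD26+ CAFs (interaction -4.38 ± 0.38, adjusted p = 8.08e-05). Kif21b, a kinesin motor, turned from 2.50 to -1.65 (interaction -4.15 ± 0.37, adjusted p = 8.08e-05). Prkg2, a cGMP-dependent kinase, turned from 1.51 to -2.09 (interaction -3.60 ± 0.53, adjusted p = 0.00193). Spock3, a matrix proteoglycan, had 0, 2 and 2 counts in CD26− NFs and 133 to 394 counts in CD26+ NFs. It had 1 to 1003 counts in CD26− CAFs and 3 to 82 counts in CD26+ CAFs, and the order of its classes was not the same in all tumor mice (differences from -4.61 to 4.13). Its fitted interaction of -9.38 ± 1.26 (adjusted p = 0.000982) depends on counts near 0, and its difference was called in WB1P mice (-2.98, adjusted p = 0.00507) and not in WB1P-Myc mice (-0.33, adjusted p = 0.764). Sox9, a transcription factor of cartilage and of progenitor cells, turned from 0.96 to -0.83 (interaction -1.79 ± 0.34, adjusted p = 0.00825), a call lost without control mouse 82/83 (adjusted p = 0.0558). Tll1, a protease that processes procollagen, turned from 1.73 to -0.97 (interaction -2.70 ± 0.43, adjusted p = 0.00279).

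**Figure D4:**
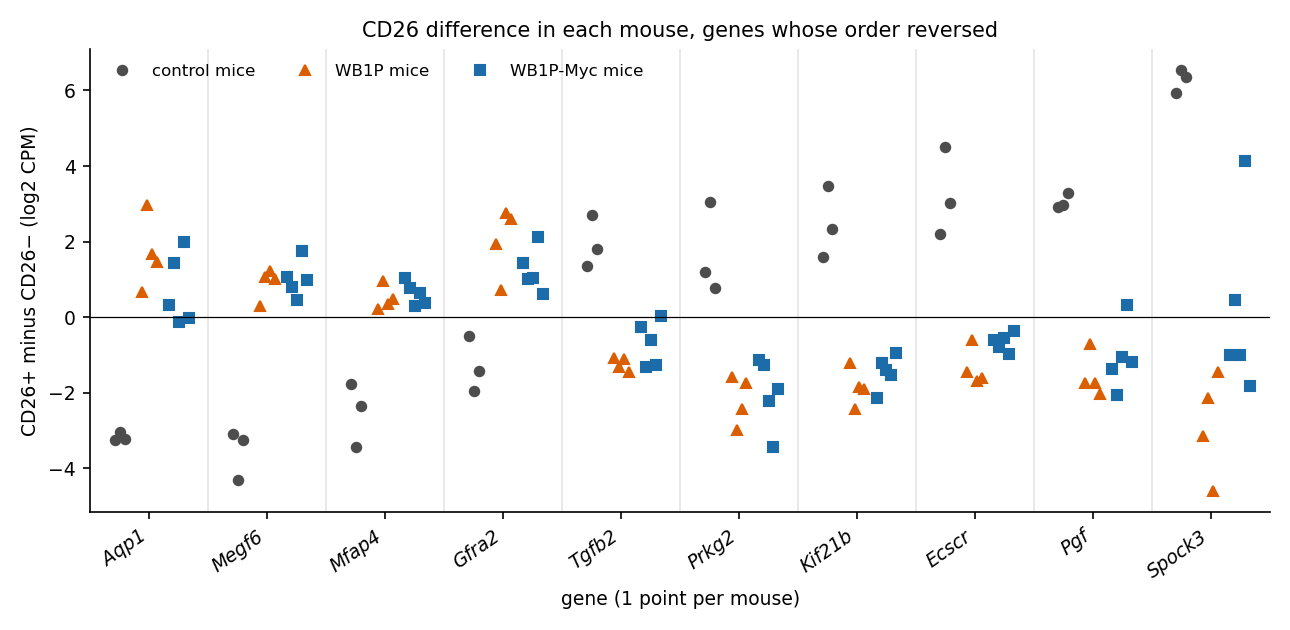
CD26+ minus CD26− log2 CPM of 10 of the reversed genes with the largest shifts, 1 point per mouse, with control mice as gray circles, WB1P mice as orange triangles and WB1P-Myc mice as blue squares. Control and tumor mice lie on opposite sides of 0 for nearly all points, and Spock3 has the widest spread among tumor mice, from -4.61 to 4.13.

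The share of members called varied between the gene lists, against 6.08% of all genes. The lists were chosen with earlier results of these data known, so the shares are a description and were not tested. Among the functional lists it was highest for smooth muscle contractile genes (9 of 19, 47.4%), integrins (7 of 23, 30.4%), markers of parenchymal fibroblasts and preadipocytes (7 of 26, 26.9%) and elastic fibre genes (8 of 31, 25.8%). Mesenchymal transcription factors had 12 members toward CD26− and 4 toward CD26+ of 86, and axon guidance and neurotrophin genes 12 and 5 of 80. Basement membrane genes had 5 toward CD26− and 1 toward CD26+ of 28. Lamb2 was the exception there, with 641 to 902 CPM in the CD26− NFs and 349 to 507 CPM in CD26− CAFs against 601 to 760 and 592 to 921 CPM in the CD26+ class (interaction 1.06 ± 0.18, adjusted p = 0.00455). Markers of progenitor and adventitial fibroblasts, the compartment that CD26 itself marks, had 4 toward CD26+ and 2 toward CD26− of 28. Interferon and antigen presentation genes had 2 of 51 called (3.92%) and cell cycle genes 2 of 48 (4.17%). For glycolysis and hypoxia genes it was 1 of 38 (2.63%), and 0 of 26 Hox genes were called. In lists of this size such counts are near the share of all genes and do not set these lists apart. The interaction was below 0 for 37 and above 0 for 14 interferon and antigen presentation genes (median -0.30). It was below 0 for 41 and above 0 for 7 cell cycle genes (median -0.46), and for 12 and 26 glycolysis and hypoxia genes (median 0.15).

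**Figure D5:**
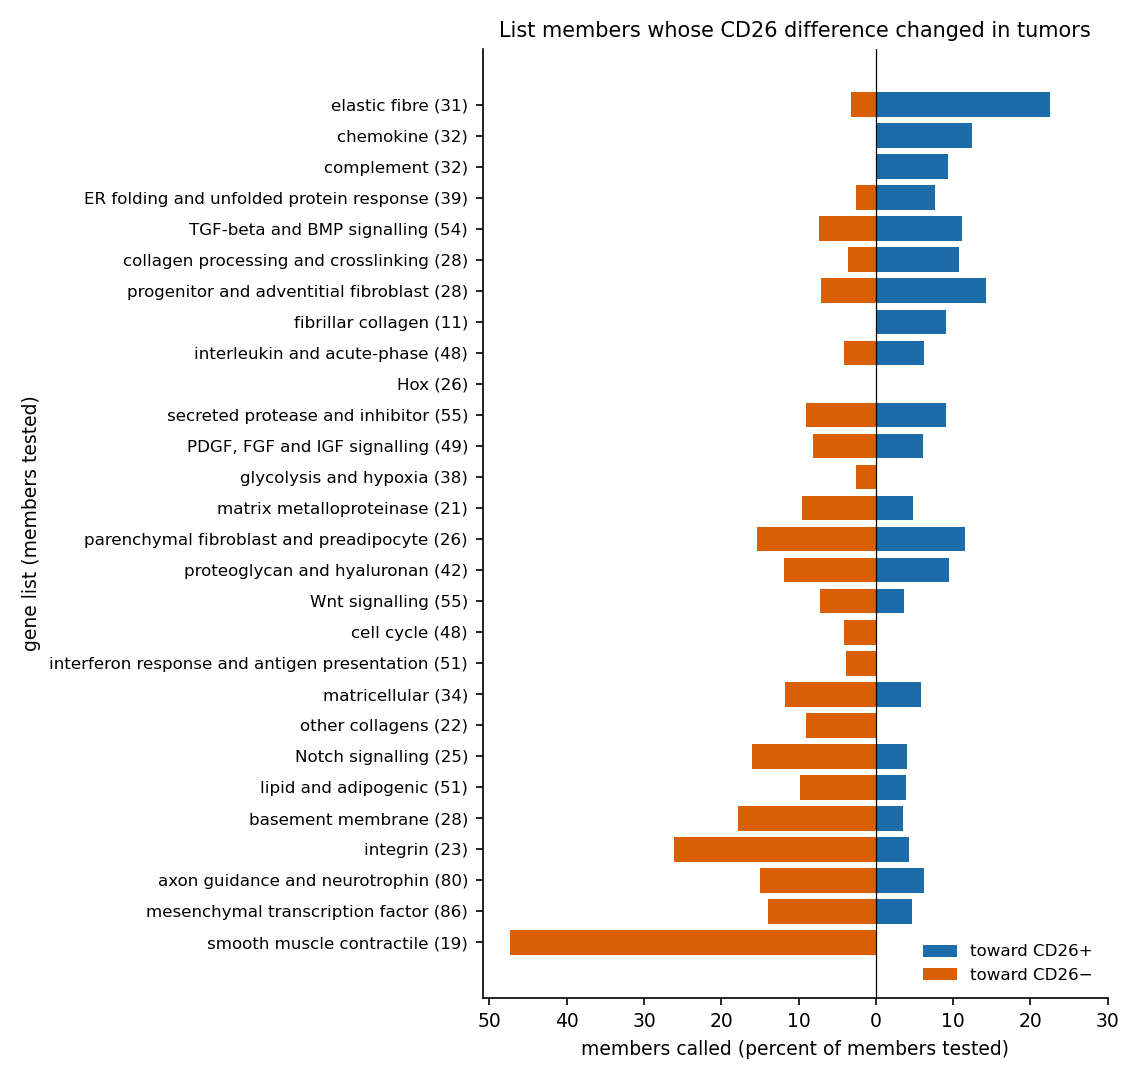
Percent of tested members whose interaction was called, toward CD26+ to the right (blue) and toward CD26− to the left (orange), for 28 functional gene lists with the number of members tested in parentheses. Smooth muscle contractile genes reach 47.4%, all toward CD26−, against 6.08% of all genes tested, and 0 of 26 Hox genes were called.

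Both tumor models were compared with the same 3 control mice. WB1P mice gave 851 calls (5.14%), with 361 toward CD26+ (2.18%) and 490 toward CD26− (2.96%). WB1P-Myc mice gave 523 (3.16%), with 180 (1.09%) and 343 (2.07%). With WB1P first, the estimates were -5.65 and -5.25 for Flt1, 2.86 and 2.86 for Pamr1 and -4.73 and -4.20 for Pgf. They lay further apart for other genes, at -10.13 and -8.16 for Adamts16, -4.11 and -5.81 for Emcn, -2.54 and -4.49 for Hey2, -3.08 and -1.92 for Adamts6 and 4.29 and 3.15 for Aldh1a1. WB1P mouse 12 and WB1P-Myc mice 21, 67 and 95 lacked a population, so the models also differ in the libraries summed. The part of this imbalance in the estimates was not tested. A direct test of WB1P-Myc against WB1P called 0 genes in edgeR, with 1395 (8.42%) at an unadjusted p under 0.05, and DESeq2 called 102. Whether the models differ in the genes missed by the test cannot be read from this count.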

How the data were processed

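RNA of sorted mammary fibroblasts was sequenced as paired-end, stranded mRNA libraries. The authors deposited 1 table of raw read counts per gene, with 55487 lines and 44 libraries, 1 line of which has no gene name and 0 counts. HISAT2 2.2.1 and genome build GRCm38 come from the submitters' processing notes. The counter and the annotation are not given in the sources used here. Libraries held 5790599 to 15240328 counts (median 12740231), and none of 63 pairs of libraries of the same group agreed within sampling noise (lowest chi-square per gene 16.32). Mouse 10, with 1 CD26− library, was left out of all fits.

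Counts were summed per mouse and CD26 class and fitted in edgeR 4.0.16 (R 4.3.3) by the quasi-likelihood test, with filterByExpr, TMM, mouse as a factor and 1 CD26 term per donor, and p-values were adjusted by Benjamini-Hochberg over all 16567 genes tested. The deviations of the 2 classes of a mouse correlated across genes in every mouse (r 0.268 to 0.669), and both classes come from the same mouse, so the mouse was kept as a block. CAFs were compared with NFs per CD26 class in a fit of 6 groups without the mouse. CPM differences of single mice used a prior count of 2.

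In simulated counts for 16336 genes with the same design, 42 of 100 changes of 1 on the log2 scale and 94 of 100 of size 2 were recovered, with 5 false calls. The changes were placed only in genes above a minimum mean count, so recovery among genes with few counts was not measured. For each class and direction, up to 6 genes are named by the size of the interaction, among those with at least 10 CPM in 1 group and differences of tumor and control mice that do not overlap. Some items that met these rules are not reported here. Called members of the gene lists and cell type markers are named as well. The members and lists were chosen with earlier results of these data known. Alternatives were no block, DESeq2 1.42.0, its size factors, other filters, tumor mice as 1 group, subsets of mice or populations, and each mouse left out. Promoters were read from RefSeq tables by gene symbol.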

Additional observations from a re-analysis of the deposited data

Results flagged for a closer look

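The interaction of 1007 genes, with 660 gained, 120 lost and 68 reversed, is a difference of the CD26 contrast between tumor and control mice, tested as an interaction in edgeR. Among the 9 tumor mice, Dixon's test flagged 1 mouse in 6 of 110 genes examined. Chance would give 5.5 if the genes varied independently, which these chosen genes need not do. In each of the 6 genes the flagged mouse was mouse 21 (WB1P-Myc), so the count does not show the flags to be chance. Its CD26+ minus CD26− log2 CPM was -7.03 for Notch3 (next lowest mouse -5.24), -9.44 for Higd1b (-7.59), -4.92 for Synpo2 (-3.35), -3.03 for Myl9 (-2.05) and -7.28 for Ppp1r14a (-5.60), and 1.93 for Itga11 (next highest 0.85). The CD26− sum of mouse 21 is 1 double− library, and without this mouse the interactions of Notch3, Synpo2, Myl9, Ppp1r14a and Itga11 were still called.

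The single CD26− library of WB1P mouse 10 is an En1+ library and is in no fit, and the control values are sums of En1+ and double− libraries. Its levels were above those of the 3 control mice in CD26− cells for all 5 genes described above as leading those gained toward CD26−. Flt1 was at 299 CPM (controls 7.12 to 11.1), Trpc6 at 94.9 CPM (0.262 to 0.434), Stum at 3.87 CPM (0.225 to 0.434), Emcn at 6.04 CPM (1.24 to 2.49) and Lgi1 at 12.2 CPM (0.300 to 1.42). CPM were scaled anew with this library included, so control values differ slightly from those above. It is 1 library, and the difference was not tested.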

How the results depend on the processing

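Counts of calls depended on the settings more than directions did. Against 1007 calls for both tumor models, 851 for WB1P, 523 for WB1P-Myc and 0 between the models, with 660 gained, 120 lost and 68 reversed, DESeq2 called 1728, 1568, 1120 and 102, with 1117, 215 and 106. The fit with no replicate block called 334, 220 and 207, with 237, 32 and 20. The En1+ and CD26+ libraries alone, a choice made after seeing the data, gave 462, 504 and 127 calls, with 252 gained. Mice with all 4 populations gave 615 calls for both models and 154 for WB1P-Myc, with 345 gained. With no filter on low counts WB1P-Myc gave 842 calls and the models differed in 33 genes, and without the mice marked 8x8 they differed in 1. With each mouse left out in turn, calls ran from 260 to 1274 for both models, 271 to 1081 for WB1P, 173 to 746 for WB1P-Myc and 0 to 16 between the models, with 181 to 875 gained, 23 to 120 lost and 23 to 83 reversed. The causes were not tested. The lowest values came without a control mouse, except those between the models. None of the 110 genes followed through the alternatives changed direction in those that tested it. Over all calls, 979 of the 981 that the En1+ and CD26+ libraries alone tested kept their sign. The alternatives reuse libraries from which these genes were called, so a kept sign is not independent support. Of the 33 genes reported from those named by size, 22 were called in all alternatives that tested them. With no block, calls were also lost for Abcc9, Actg2, Cald1, Itga7, Notch1, Inhba, Dcn, Pdgfra, Ccl11, Cxcl5, Cfb, Ackr2, Sox9, Limch1 and Wnt10b. In the En1+ and CD26+ libraries alone they were lost for Hsd11b1, Chst1, Adgrb2, Slitrk1, Actg2, Mylk, Cald1, Ppp1r14a, Col4a1, Col4a2 and Ackr1, among others. With 3 control mice and sums of 5790599 to 29498005 counts, a shift that was not called is not shown to be absent.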

Other observations

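Over whole classes, the CD26− library of mouse 10 lay above the range of the 3 control mice for 296 of the 367 genes gained toward CD26− (80.7%) and for 30 of the 35 reversed toward CD26− (85.7%), against 31% of all genes tested. It lay below that range for 229 of the 293 genes gained toward CD26+ (78.2%) and for 28 of the 33 reversed toward CD26+ (84.8%), against 40.7% of all genes tested. The library is En1+, whereas the control sums also hold double− cells. The same control libraries entered the choice of these genes, so the shares describe 1 library and were not tested.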
